A study of Bos taurus with 16 samples.

Results

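The CXC chemokines are the family described here, in cells labeled CD14+ that were sorted from endometrium and from blood of 4 pregnant cows. A probe belonged to the family when its gene name, or the symbol in brackets in its description, was CXCL with a number, IL8 or GRO1. This rule took 11 genes of 20428 gene names on the array, each with 1 probe of 60 bases. They were IL8, CXCL1, CXCL2, CXCL3, CXCL5, PPBP, CXCL9, CXCL10, CXCL11, CXCL12 and CXCL14. In the RefSeq gene table, IL8 is listed as CXCL8 and CXCL1 as GRO1. The probe called CXCL5 is CXCL6 in the array files, and that called PPBP carries CXCL7 in its description.

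CXC chemokines are small secreted proteins that attract leukocytes through receptors of the CXCR group. IL8, CXCL1, CXCL2, CXCL3, CXCL5 and PPBP carry the ELR motif (Glu-Leu-Arg) before the first cysteines, draw neutrophils through CXCR1 and CXCR2, and are made by monocytes, macrophages and epithelial cells under NF-kB; PPBP is best known from platelets. CXCL9, CXCL10 and CXCL11 are induced by interferon and act on CXCR3 of T cells and natural killer cells, CXCL12 acts on CXCR4, and CXCL14 is a chemokine of epithelia that attracts cells of the monocyte and dendritic lineages.

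The cows were at day 164 (animal 1), 239 (animal 2), 242 (animal 3) and 248 (animal 4) of pregnancy, so the day of pregnancy and the animal cannot be told apart. The labels name no treatment, and the uteri and the blood came from an abattoir. Endometrial cells were released from tissue between the placentomes with collagenase, blood cells were mononuclear cells, and both were sorted on CD14, a surface protein of monocytes and macrophages. Small amounts of RNA were amplified before labeling. Both tissues of an animal were hybridized together on 2 arrays with 2 colours, with the dyes swapped between the arrays in 3 of the 4 animals and endometrium in Cy5 on both arrays of animal 3.

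Between 65.2% and 82.9% of the spots in an endometrial channel and between 68.4% and 76.5% in a blood channel were well above background, and 0 spots were saturated. The blood of animal 1 stood apart from the other blood samples. CD14 itself had a log2 normalized intensity of 14.24 in the blood of animal 1, against 6.30, 7.63 and 6.69 in the blood of animals 2, 3 and 4. In endometrium it was 12.17, 6.41, 8.14 and 6.82. All 10 tested monocyte and macrophage markers, 6 of 7 tested granulocyte markers and 10 of 11 stromal markers were highest in blood in animal 1. So were 3 of 8 endothelial markers. None of the 6 B cell, 10 natural killer and T cell, 13 epithelial, 8 trophoblast and 2 platelet markers tested was highest there. Summed over their genes, the B cell markers had a normalized intensity of 6562 in the blood of animal 1 and of 14565 to 38164 in that of animals 2, 3 and 4, which are also labeled CD14+. The message of CD14 was thus low in 3 of the 4 blood samples, although all 8 blood channels were well above background. It was about as low in the endometrium of animals 2 and 4. From flow cytometry, the paper reported that the sorted blood cells were almost all CD14+, and the endometrial cells slightly less pure. Whether the blood samples of animals 2, 3 and 4 held the labeled cells cannot be told from the arrays. Every ratio below compares endometrium with the blood samples as labeled. Of the tested markers between tissues, 5 of 8 for trophoblast (PAG4, PAG7, PRP1, PRP6 and CSH2) were higher in endometrium at the threshold used below. None of the other lists had a probe past it, with medians of the log2 ratio of 2.18 for 13 epithelial, 1.90 for 11 stromal, 0.34 for 8 endothelial, 1.71 for 10 monocyte and macrophage, 1.02 for 10 natural killer and T cell, -1.65 for 6 B cell, -0.57 for 7 granulocyte and 0.087 for 2 platelet markers. Results that rest on animal 1 are given with and without it.

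The probes of CXCL1, CXCL2 and CXCL3 are alike over a part of their length, which is shown because signal from any of the 3 transcripts may reach all 3 probes. Each holds a window of 30 bases with 26 bases the same in all 3, in capitals, written 5′ to 3′ as on the array:
CXCL1: CTTGTAAGGCAtAATGCCTTGTTTagTGTg
CXCL2: CTTGTAAGGCAcAATGCCTTGTTTcaTGTt
CXCL3: CTTGTAAGGCAtAATGCCTTGTTTaaTGTt
Over the whole aligned probes, 37 of 56 bases were the same in CXCL1 and CXCL2, 41 of 59 in CXCL1 and CXCL3 and 45 of 55 in CXCL2 and CXCL3. The longest run shared by CXCL1 and CXCL3 was 25 bases, and a run of 12 bases was common to all 3 probes and found in 3 of 21475 probes. How much signal crossed between them was not tested, so the values of these 3 genes are uncertain as to the gene. Other pairs of the family shared runs of at most 9 bases. The first 30 bases of the probes of CXCL14, IL8 and CXCL5, the members with the lowest unadjusted p, stand for the unlike probes:
CXCL14: gtgtcatatgctatgtaaatgtcaggaacc
IL8: tcttgcccttattatgcaatgatgtgttgt
CXCL5: gttaaaattgtactttttaaatgtatctca
In the order of protein-coding genes in the RefSeq table, CXCL5 follows IL8 after 1 other gene, PPBP follows directly, and CXCL2, CXCL3 and CXCL1 follow after PF4. CXCL9, CXCL10 and CXCL11 lie 16 genes further on, with ART3 between the first 2 of them. CXCL12 and CXCL14 are not in this row.

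Each animal gave 1 log2 ratio, endometrium over blood, from its 2 arrays, and limma tested these ratios against 0 over the 4 animals. A probe was called at a Benjamini-Hochberg adjusted p of at most 0.05, taken over 16654 tested probes, and a fold change over 2. All 11 members were tested and 0 were called, where 11 probes, 0.0661% of all tested, were called, all higher in endometrium. At an unadjusted p of at most 0.05 with the same fold change, 3 members passed (CXCL14 higher in endometrium, IL8 and CXCL5 higher in blood), against 10.4% of all tested probes. The median log2 ratio of the 11 members was -0.29, and that of all tested probes -0.023. CXCL14 was higher in endometrium in all 4 animals, as were 10.2% of tested probes. IL8, CXCL2 and PPBP were higher in blood in all 4, as were 14.7%, with CXCL2 in animal 4 at a log2 ratio of only -0.03 whose 2 arrays had opposite signs. CXCL11 also had 4 ratios above 0, but in animals 2 and 4 it had no channel well above background in either tissue, so its sign there was not read. In 0 of 11 members did the 4 values of endometrium and the 4 of blood stand apart without overlap, which 5.43% of tested probes did. With 4 animals a 2-sided exact permutation test within animals cannot give a p under 0.125, the value it gave for IL8, CXCL2, PPBP and CXCL14.

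**Figure D1:**
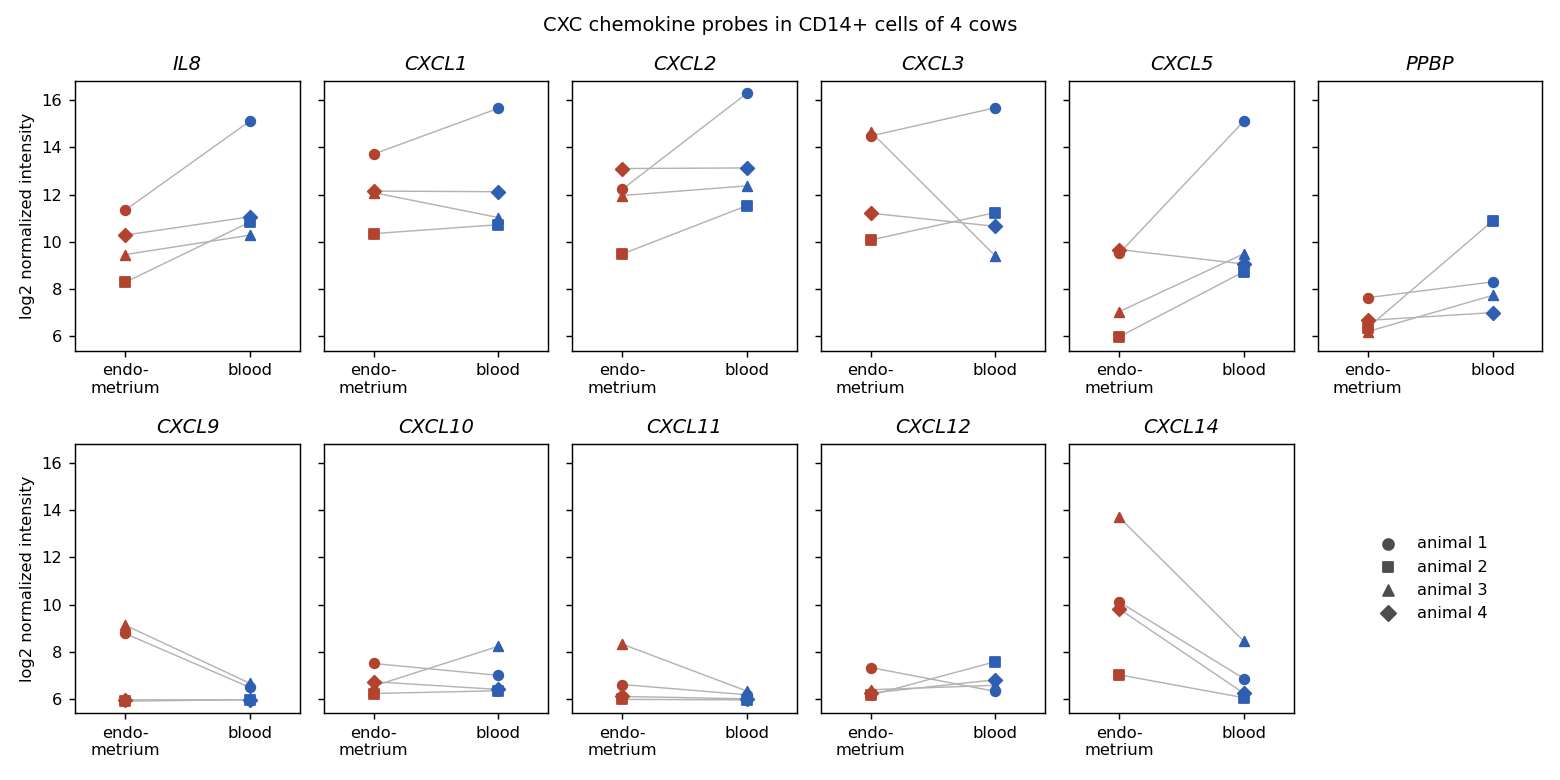
Log2 normalized intensity (vertical axis, the same in every panel) of the 11 CXC chemokine probes in endometrium (red) and blood (blue), with 1 symbol for each animal and a line joining both tissues of an animal; levels are to be compared within a panel, not between probes. The blood of animal 1 (circle) was highest for IL8, CXCL1, CXCL2, CXCL3 and CXCL5, and the endometrium of animal 3 (triangle) for CXCL14.

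IL8, the prototype attractant of neutrophils, had log2 intensities of 11.33, 8.29, 9.46 and 10.28 in the endometrium of animals 1, 2, 3 and 4. In blood they were 15.11, 10.83, 10.28 and 11.06. Blood was the higher tissue in every animal, but the endometrium of animal 1 was brighter than the blood of the other 3 animals. The log2 ratio was -1.98 ± 0.58 (SE, n = 4), a 3.94-fold difference, with a 95% confidence interval of -3.42 to -0.53 and an adjusted p of 0.266 by limma. Without animal 1 the ratio was -1.38, with an adjusted p of 0.419.

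CXCL5, made by epithelial and myeloid cells, had the widest difference toward blood of the family. Its log2 intensity in endometrium was 9.51, 5.98, 7.05 and 9.67 in animals 1 to 4. In blood it was 15.11, 8.74, 9.496 and 9.06. Blood exceeded endometrium in animals 1, 2 and 3 but not in animal 4, and the endometrial signal of animal 2 did not rise well above background. The ratio was -2.55 ± 0.96 (SE, n = 4), with an adjusted p of 0.312, and its size rests in part on that dim signal: animal 2 had -2.76 here and -7.75 in the authors' value table. Leaving out animal 1 gave -1.53 (adjusted p 0.467), and leaving out animal 4 gave -3.60 (adjusted p 0.192).

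CXCL2, another neutrophil attractant of activated macrophages, had log2 intensities of 12.21, 9.48, 11.96 and 13.10 in endometrium. In blood they were 16.28, 11.53, 12.37 and 13.12. The ratios of -4.07, -2.05, -0.41 and -0.03 ran from a wide difference in animal 1 to equal levels in animal 4. Their mean was -1.64 ± 0.71 (SE, n = 4), with an adjusted p of 0.352, and without animal 1 it was -0.83 (adjusted p 0.518). The 2 arrays of animal 1 differed here. Its log2 ratio was -5.23 with endometrium in Cy3 and -2.90 with endometrium in Cy5, while its blood read 16.23 and 16.33 on these arrays.

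CXCL1, of the same receptor group, had log2 intensities of 13.71, 10.35, 12.08 and 12.14 in endometrium and of 15.65, 10.72, 11.03 and 12.12 in blood. Animals 1 and 2 were higher in blood, animal 3 was higher in endometrium, and animal 4 had about the same level in both. As for CXCL2, the arrays of animal 1 differed, with -2.59 with endometrium in Cy3 and -1.28 with endometrium in Cy5. The mean ratio was -0.31 ± 0.50 (SE, n = 4; adjusted p 0.811), and it was 0.23 without animal 1.

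CXCL3 differed most between animals. Its log2 intensity in endometrium was 14.48, 10.08, 14.66 and 11.21. In blood it was 15.67, 11.24, 9.40 and 10.65. Animal 3 had a log2 ratio of 5.26 toward endometrium, while animals 1 and 2 had -1.19 and -1.16 toward blood and animal 4 had 0.56. In animal 1 the array with endometrium in Cy3 gave -1.60 and that with endometrium in Cy5 gave -0.79. Only 0.138% of tested probes had a larger SD of the ratio over animals than the 3.04 of CXCL3. The mean ratio was 0.86 ± 1.15 (SE, n = 4), with an adjusted p of 0.760, and it was -0.60 (adjusted p 0.676) without animal 3, the animal without a dye swap.

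PPBP, the precursor of the platelet chemokine CXCL7, did not share the high blood value of animal 1. In endometrium the log2 intensity was 7.64, 6.37, 6.204 and 6.68, and in blood it was 8.30, 10.88, 7.73 and 7.01. Its highest value was in the blood of animal 2, and the endometrium of animal 3 had no channel well above background. The ratio was -1.76 ± 0.73 (SE, n = 4; adjusted p 0.342), and without animal 2 it was -0.84 (adjusted p 0.479). PF4, the platelet chemokine next to it in the genome, stood well above background in 3 of 8 channels of blood and in 0 of 8 of endometrium and was not tested. The platelet markers TREML1 and ITGA2B had blood values of 11.28 and 7.09 in animal 2, against 10.34 to 10.74 and 7.49 to 8.31 in the other animals.

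**Figure D2:**
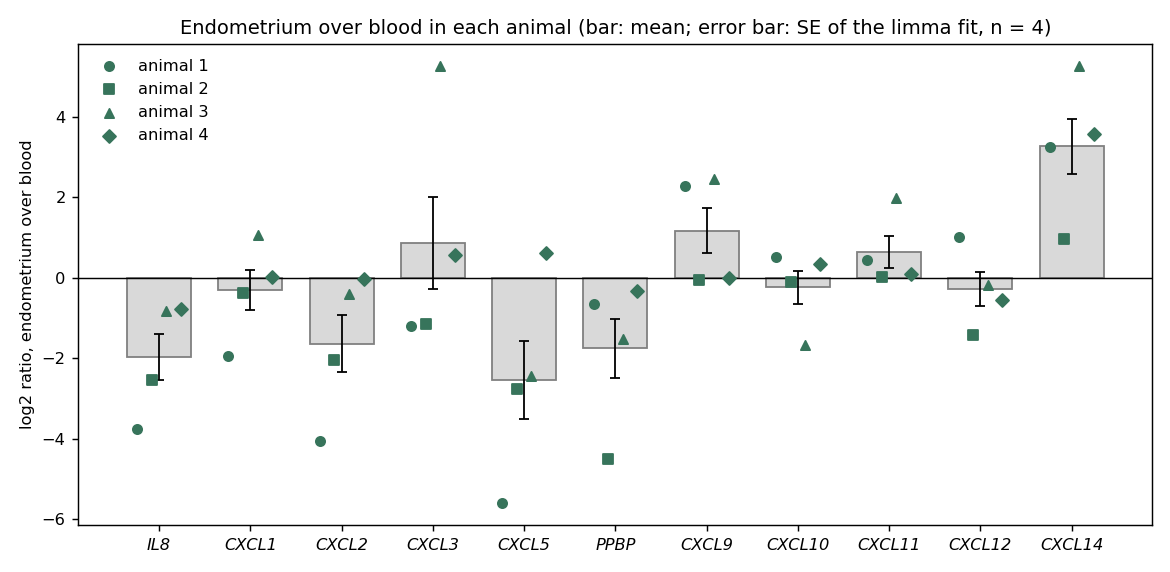
Log2 ratio of endometrium over blood (vertical axis) for the 11 genes, with 1 symbol for each animal, the mean as a bar and the SE of the limma fit as an error bar. IL8 and PPBP were below 0 in all 4 animals, CXCL14 was above 0 in all 4, CXCL2 ran from -4.07 to -0.03 and CXCL3 from -1.19 to 5.26; CXCL11 in animals 2 and 4 is read from background.

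The high blood values of animal 1 were common to 5 of the 6 ELR genes. The blood of animal 1 exceeded the mean of the other 3 blood samples by 4.38 for IL8, 4.36 for CXCL1, 3.94 for CXCL2, 5.24 for CXCL3 and 6.01 for CXCL5 on the log2 scale. Over all tested probes the median of this excess was -0.08, animal 1 had the highest blood value at 30.6% of them, and 0.282% (CXCL5) to 1.52% (CXCL2) of probes had a larger excess than these members. PPBP, CXCL9, CXCL10, CXCL11, CXCL12 and CXCL14 had differences between -0.67 and 0.29. The monocyte and macrophage markers, summed over 11 genes, had a normalized intensity of 97260 in the blood of animal 1 and of 3124 to 4815 in the other blood samples. The granulocyte markers, summed over 10 genes, had 150058 and 2612 to 4295, with a median excess of 5.55 over the 7 tested ones. The stromal markers, summed over 11 genes, had 5057 and 1307 to 1593, with a median excess of 1.78. CATHL1, CATHL3 and CAMP, of the granules of neutrophils, were not above background in any channel, and MPO was not highest in animal 1. The part of these cell types in the chemokine values was not tested, and in sorted bulk cells a different share of a cell type and a different amount of RNA in each cell cannot be told apart.

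**Figure D3:**
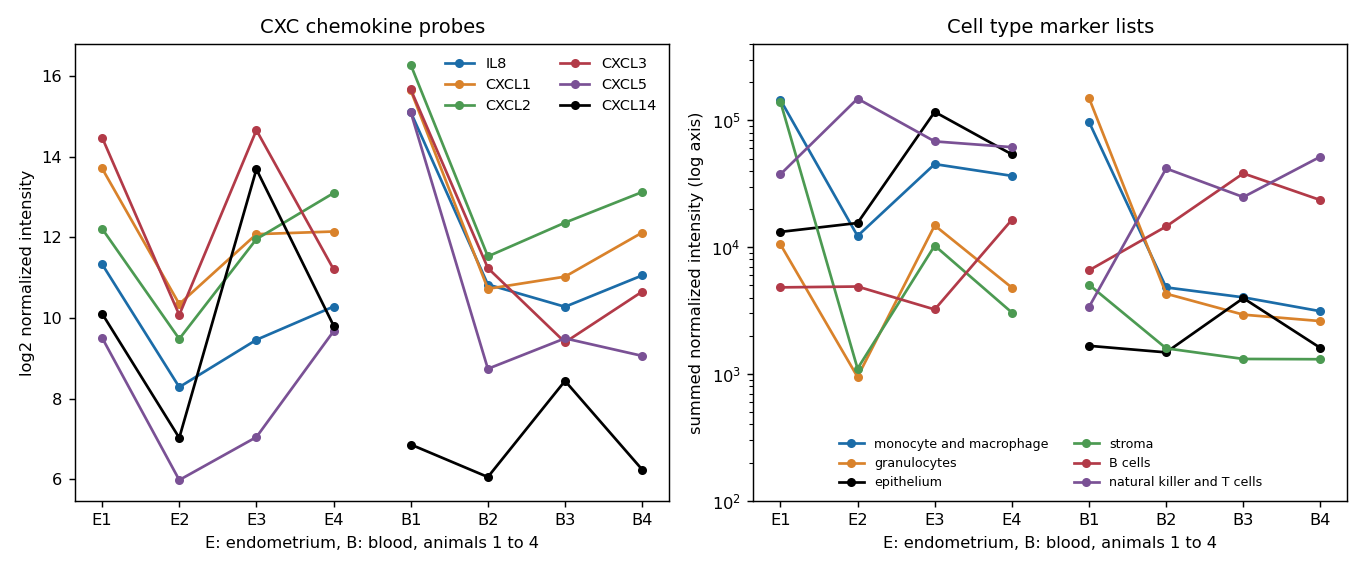
Left, log2 normalized intensity of 6 CXC chemokine probes; right, summed normalized intensity of 6 cell type marker lists on a log axis, in endometrium (E) and blood (B) of animals 1 to 4, with lines joining the samples of a tissue only to guide the eye. The 5 ELR genes shown and the monocyte and macrophage, granulocyte and stromal lists were highest among the blood samples in animal 1. CXCL3, CXCL14 and the epithelial and granulocyte lists were highest among the endometrial samples in animal 3. The trophoblast and endothelial lists, not drawn, were also highest there.

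Over the 8 means of animal and tissue, the ELR genes IL8, CXCL1, CXCL2 and CXCL5 followed each other with Pearson's r between 0.84 and 0.97. CXCL3 had r of 0.82 with CXCL1 and of 0.49 to 0.60 with IL8, CXCL2 and CXCL5. These values share the blood of animal 1 and are descriptions over 8 points from 4 animals. Among all tested probes of other genes, those most like IL8 were PTGS2 (r = 0.979), the cyclooxygenase of induced prostaglandin synthesis, G0S2 (0.969) and CXCL5 (0.969). Those most like CXCL5 were SYS1 (0.979), PTGS2 (0.973) and IL8 (0.969). The nearest to CXCL2 were AV594255, HDAC5 and MAP3K8 (0.971 to 0.947), to CXCL1 KTN1, MAGIX and AV607500 (0.989 to 0.978), to CXCL3 the unnamed transcripts CB423305, AW435574 and AU233401 (0.985 to 0.979) and to PPBP H3-3B, TUBB1, a tubulin of platelets, and TAC3 (0.983 to 0.938).

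CXCL9, an interferon-induced ligand of CXCR3, was well above background on both arrays of animals 1 and 3 in endometrium, and in blood on both arrays of animal 1 and 1 of the 2 of animal 3. Its log2 intensity in endometrium was 8.77, 5.91, 9.13 and 5.97. In blood it was 6.49, 5.98, 6.67 and 5.97. Endometrium was higher by 2.28 and 2.46 in animals 1 and 3, and animals 2 and 4 had no channel well above background in either tissue. The mean ratio was 1.17 ± 0.55 (SE, n = 4; adjusted p 0.377). CXCL11, of the same group, was well above background in both endometrial arrays of animals 1 and 3 and in 0 of 8 blood channels. Its endometrial levels were 6.62, 5.99, 8.33 and 6.11, next to blood values of 5.97 to 6.34. Since blood gave only background, no fold is given. The fitted log2 ratio of 0.64 (adjusted p 0.480 by limma) was 0.19 without animal 3.

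CXCL10, the third of this group, was well above background in all channels but dim. In endometrium the log2 intensity was 7.51, 6.24, 6.55 and 6.74, and in blood it was 7.00, 6.35, 8.23 and 6.41. The blood of animal 3 held the highest value, the reverse of CXCL9 and CXCL11 in the same animal. The mean ratio was -0.24 ± 0.42 (SE, n = 4), with a 95% confidence interval of -1.29 to 0.81, and it was 0.24 without animal 3. Over the 8 means CXCL9 and CXCL11 had Pearson's r of 0.85 and Spearman's rho of 0.86. CXCL10 had r of 0.28 and rho of 0.64 with CXCL9, and r of 0.03 and rho of 0.71 with CXCL11. CXCL11 was well above background only in the endometrium of animals 1 and 3, and CXCL9 only in animals 1 and 3. Their other means are background, so the ranks are largely ranks of background and are not read. The probes most like CXCL9 were PDLIM4, PTPRM and FRRS1 (0.996 to 0.995), most like CXCL11 ACADL, OCLN and BF599902 (0.999 to 0.997), and most like CXCL10 ISCU, NUMBL and ZNF333 (0.981 to 0.942). For CXCL9 and CXCL11 these r rest mainly on the endometrium of animals 1 and 3.

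CXCL12, a chemokine of stromal cells, was also dim. Its log2 intensity in endometrium was 7.33, 6.17, 6.39 and 6.25, and in blood it was 6.32, 7.58, 6.58 and 6.82. Animal 1 was higher in endometrium and animals 2, 3 and 4 in blood. The ratio was -0.29 ± 0.42 (SE, n = 4; 95% confidence interval -1.35 to 0.77), and without animal 2 it was 0.086. The stromal markers, summed over 11 genes, had an intensity of 140354 in the endometrium of animal 1 and of 1102 to 10281 in that of the other animals, and their part in the level of CXCL12 was not tested. CB166415, RCAN2 and hmm239033 had the patterns most like CXCL12 (0.950 to 0.933).

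CXCL14 had the largest difference toward endometrium of the family and ranked 61 of 16654 from the highest ratio. Its log2 intensity in endometrium was 10.11, 7.03, 13.69 and 9.81. In blood it was 6.86, 6.06, 8.44 and 6.24. Endometrium was the higher tissue in each of the 4 animals, and the endometrium of animal 2 overlapped with the blood of animal 3. All 8 endometrial channels were well above background, and 6 of 8 blood channels were, all but the 2 of animal 2. The log2 ratios were 3.25, 0.97, 5.25 and 3.57, with a mean of 3.26 ± 0.68 (SE, n = 4), a 9.57-fold difference, a 95% confidence interval of 1.54 to 4.98 and an adjusted p of 0.262. It was 4.02 (adjusted p 0.205) without animal 2 and 2.60 (adjusted p 0.531) without animal 3. In the 3 animals with swapped dyes, the ratio with endometrium in Cy5 minus that with endometrium in Cy3 was -0.55 to -0.27.

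Animal 3 held the highest level of CXCL14 in both tissues, and so it did for the epithelial markers. Summed over 13 genes these had an intensity of 13193, 15505, 116581 and 53921 in endometrium and of 1668, 1480, 3963 and 1603 in blood, and 12 of the 13 were higher in endometrium in all 4 animals. Of these, OCLN had 0 blood channels well above background and a log2 ratio of 0.004 in animal 2. By this sum animal 1 was the lowest endometrial sample, whereas it was second for CXCL14. SERPINA14 was the brightest gene of the sum, with 12.38, 13.50, 15.92 and 15.61 in the endometrium of animals 1 to 4. Apart from SERPINA14 and ELF3, each epithelial marker had animal 1 second after animal 3 in endometrium, as CXCL14 did. The trophoblast markers, over 11 genes, had sums of 21041, 14450, 47833 and 15319 in the endometrium of animals 1 to 4. The endothelial markers, over 8 genes, had 2196, 1581, 7266 and 1757 there. Both sums put the endometrial samples in the same order as CXCL14, so that order was not particular to epithelial markers. In blood both were highest in animal 2, with ranges of 1527 to 3348 and of 1362 to 2032. The part of these cells in the level of CXCL14 was not tested. The probes most like CXCL14 over the 8 means were WWC1 (r = 0.991), ADA, an adenosine deaminase (0.985), and BM433723 (0.984).

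The call of CXCL14 differed between treatments of the same arrays, and the cause was not tested. In the authors' value table its log2 ratios were 4.34, 5.01, 5.60 and 5.84 in animals 1 to 4. There the mean was 5.20 ± 0.48 (SE, n = 4), a 36.7-fold difference, with an adjusted p of 0.00733 by limma, and CXCL14 was the member called, 1 of 11, where 1.35% of the tested probes were called. The scanner's processed signal gave 5.33 (adjusted p 0.0143), normexp with an offset of 16 gave 3.81 (adjusted p 0.0877), and no background correction gave 3.77 (adjusted p 0.127). A fit over single arrays that models the dye, with the animal as random block, also called it, at 3.31 (adjusted p 0.0126), on the intensities used above. That fit counts 8 arrays rather than 4 animals as its units, which tends to lower p, and it called 792 of 16654 probes. On the table's scale the ratio of CXCL5 was -3.97 ± 1.26 (adjusted p 0.224), that of PPBP was -3.02 ± 0.99 (0.232), that of CXCL9 was 2.26 ± 0.98 (0.320) and that of CXCL11 was 2.62 ± 0.82 (0.219). These ratios rest in part on samples with no channel well above background, for CXCL11 all of blood, so their sizes are not measured folds. The blood of animal 2 was such a sample for CXCL14, with 2.95 in the table, so the 36.7-fold difference also rests in part on background. The bright probes of IL8, CXCL1, CXCL2 and CXCL3 had nearly the same ratios on both scales, with -2.08, -0.32, -1.65 and 0.90 in the table. Of CXCL10 and CXCL12 the table gave -0.43 and -1.06.

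**Figure D4:**
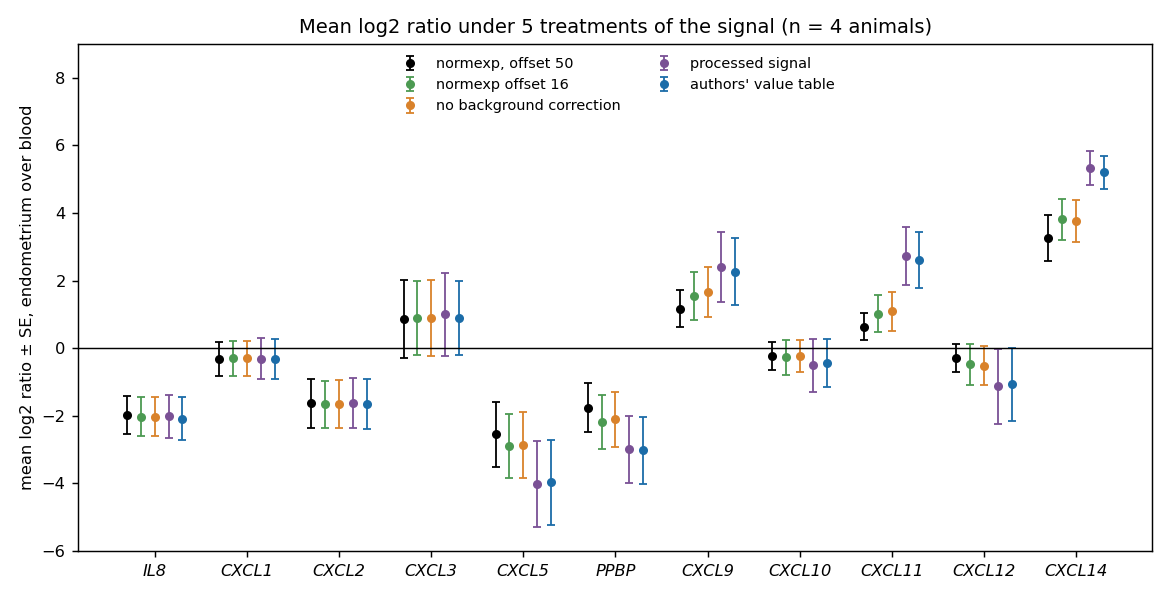
Mean log2 ratio of endometrium over blood with its SE (vertical axis, 4 animals) of the 11 genes under 5 treatments of the same arrays. CXCL14 ran from 3.26 with normexp at an offset of 50 to 5.33 with the processed signal, and IL8, CXCL1, CXCL2 and CXCL3 kept nearly the same place.

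The receptors were represented by 9 probes of 7 genes, of which 8 probes were tested and 0 were called. The probe that the files name IL8RB, a receptor of IL8 on neutrophils, carries an accession that RefSeq gives to CXCR1. Its log2 intensity in endometrium was 6.14, 6.05, 6.27 and 6.10, with 2 of 8 channels well above background. In blood it was 8.31, 6.74, 7.30 and 6.52, with 8 of 8 channels above. It was the receptor whose groups did not overlap, as was so for 5.43% of all tested probes. The ratio was -1.08 ± 0.35 (SE, n = 4, adjusted p 0.276). In the authors' value table it was -3.86 ± 0.52 (adjusted p 0.0195, called), where 1.35% of the tested probes were called. With endometrium mostly at background, the size of either ratio is not a measured fold.

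CXCR6, the receptor of CXCL16 on natural killer and T cells, had log2 intensities of 9.96, 14.36, 13.39 and 12.79 in endometrium and of 6.89, 10.73, 11.24 and 12.75 in blood. Endometrium was higher in 4 of 4 animals, by only 0.04 in animal 4, and the ratio was 2.22 ± 0.62 (SE, n = 4; adjusted p 0.262). CXCL16 itself, which the rule does not take, had a ratio of -0.43 ± 0.54 (adjusted p 0.741), and its blood level of 12.16 in animal 1 was above the 7.70 to 10.23 of the other animals. The natural killer and T cell markers, summed over 10 genes, had 37512 to 148251 in endometrium and 3371 to 51712 in blood, with the lowest sum, as for CXCR6, in the blood of animal 1.

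CXCR4, the receptor of CXCL12, had the higher level in blood in 4 of 4 animals by either probe, at -1.69 ± 0.69 and -0.55 ± 0.24 (adjusted p 0.338 and 0.356). ACKR3, a scavenging receptor of CXCL12, had ratios of 4.17 and 2.43 in animals 1 and 3 and of -0.39 and -0.05 in animals 2 and 4, with a mean of 1.54 ± 0.83 (adjusted p 0.421). CXCR3, the receptor of CXCL9, CXCL10 and CXCL11, had 0.62 ± 0.39 (adjusted p 0.486), with 1.96 in animal 3. The 2 probes of CXCR5, a receptor of B cells, had -1.81 ± 0.83 and -0.15 ± 0.21 (adjusted p 0.369 and 0.778). As with CXCR4, they did not give the same size. Both were below 0 in 4 of 4 animals, with the smallest ratios at -0.07 and -0.007. ACKR1, which binds many chemokines on red blood cells and veins, had no channel well above background. CXCL13, the ligand of CXCR5, and LOC613685, a gene like CXCL15, had none either.

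**Figure D5:**
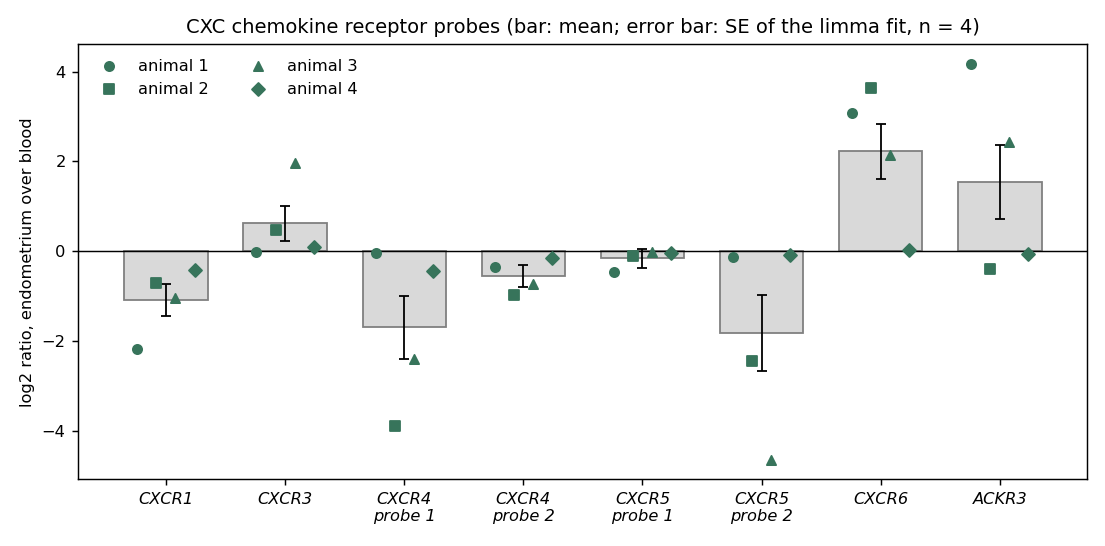
Log2 ratio of endometrium over blood (vertical axis) for the 8 tested receptor probes, with 1 symbol for each animal, the mean as a bar and the SE of the limma fit as an error bar. CXCR1, both probes of CXCR4 and both probes of CXCR5 were below 0 in all 4 animals, and CXCR6 ran from 0.04 to 3.63.

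The genes that act with the ELR chemokines were given by a list of NF-kB-linked inflammatory genes, of which 23 were tested and 0 were called. Their median log2 ratio was -0.83, 10 were higher in blood in all 4 animals and 3 (TNF, JUN and FOS) higher in endometrium in all 4. Of all tested probes, 14.7% were higher in blood and 10.2% in endometrium in all 4. In the blood samples 13 of the 23 listed genes were highest in animal 1, as were 30.6% of all tested probes. The brightest were NFKBIA, the inhibitor of NF-kB, at -0.94 ± 0.34, CEBPB at -0.50 ± 0.46, CCL4 at -0.83 ± 0.33 and TNF at 0.58 ± 0.26, with adjusted p between 0.298 and 0.634. A list of 26 tested genes of the interferon system held IFNG, the receptor subunits IFNAR1, IFNAR2, IFNGR1 and IFNGR2, and genes that interferons induce or act through. Of these 0 were called, with a median of -0.55; 8, the subunits IFNAR1 and IFNAR2 among them, were higher in blood in all 4 animals and 0 in endometrium. The brightest were IFNAR2 at -2.21 ± 0.68, PSMB8 at 0.01 ± 0.41, IRF8 at -1.44 ± 0.96 and ISG15 at -0.53 ± 0.68 (adjusted p 0.273 to 0.995).

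Of 13 tested enzymes and proteoglycans that cut or hold CXC chemokines, 0 were called and the median was 0.90. In all 4 animals 7 were higher in endometrium and 1 in blood, against 10.2% and 14.7% of all tested probes. Some of these signs are not firm. SDC2 had 0 of 8 blood channels well above background and a log2 ratio of 0.009 in animal 2, and MMP2 had 0.018 in animal 4. DCN and BGN had their largest ratios, 7.11 and 3.95, in animal 1. In blood 12 of the 13 were highest in animal 1, as were 30.6% of all tested probes. The gene higher in blood was SRGN, the proteoglycan core of leukocyte granules, at -1.51 ± 0.36 (adjusted p 0.262). DPP4, which trims the ends of CXCL10, CXCL11 and CXCL12, was at 1.78 ± 0.43 (adjusted p 0.262). SDC4 and HSPG2, heparan sulfate proteoglycans, were at -0.41 ± 0.88 and -0.56 ± 0.34 (adjusted p 0.863 and 0.479).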

How the data were processed

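RNA of endometrial and blood CD14+ cells of 4 cows was read on 8 arrays with 2 colours, 16 samples in all. The authors deposited scanner files with the median intensity of each spot and of its background, not normalized, and a processed intensity corrected for background and dye by Feature Extraction (version 9.5 per the labels, 10.5.1.1 in the file header). The authors' value table holds log2 values after lowess and quantile normalization; its 16 columns have the same median of 8.00. By rank of the processed intensity, each column matched (100% of probes, within 0.001) the file given to its animal's other technical replicate, in the dye of the label, and files were read accordingly. This gives the direction of the ratios.

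With limma 3.58.1, statmod 1.5.0 and data.table (1.17.8) in R 4.3.3, median signals were corrected by normexp (offset 50), then normalized by loess within arrays and quantiles over 16 channels. Control spots and outliers (2 to 20 for each array) were dropped before averaging a probe's spots. Probes well above background in at least 4 of 8 channels of at least 1 tissue were tested with lmFit and eBayes on the ratio within each animal (mean of 2 arrays). Adjusted p is that of Benjamini and Hochberg. Pairing comes from the labels. Both tissues of an animal deviated from their means with r of 0.618, 0.364, 0.209 and 0.465. They shared arrays, and no r between different animals was computed, so these values cannot check the pairing. The animals are separate cows, so p sets the mean ratio against the spread between 4 cows. The number of cows limits the precision.

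Named were all member and receptor probes, family genes under other names, the 3 tested probes of other genes with the highest r to each member, and, of 3 pathway lists, at most 4 of the brightest genes; other marker and list genes and DPP4, SRGN, JUN, FOS and CXCL13 were named after their values were seen. Lists took the brightest tested probe of a gene. Names came from the RefSeq gene table by accession (3519 probes), gene identifier (9987), symbol (307) or synonym (88), and otherwise from the files (7574). Members and lists were chosen with earlier results of these data known. The fit was checked on simulated data with a common spread well below the median SD of 0.68 of the tested ratios. That check does not show how often real differences are found here. Alternatives changed the background correction, normalization, intensities, filter, pairing, dye term, slide, animals, test, threshold and reading of the files.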

Additional observations from a re-analysis of the deposited data

Results flagged for a closer look

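Of 33 groups of 4 values examined (11 genes in endometrium, in blood and as ratios), 2 had a sample far from the others. The blood of animal 1 had a log2 intensity of 15.11 for IL8, with a gap to the next sample of 0.839 of the range of the group, and of 15.11 for CXCL5, with a gap of 0.881. Chance flags about 1 in 20 such groups. Both genes also shared this high sample with CXCL1, CXCL2 and CXCL3, whose gaps were smaller.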

How the results depend on the processing

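The 11 ratios were recomputed under up to 17 alternatives, 184 values in all: 169 had the same direction and the same side of the threshold, 4 passed it and 11 reversed. The 4 were CXCL14 with the processed signal (5.33), the authors' log2 values (5.20) and a dye term with animal as random block (3.31), and IL8 with the latter (-1.98, adjusted p 0.0348), a fit in which the arrays of an animal had a correlation of 0.986. The fit with the dye term counts arrays, not animals, as its units. Read as attached, the files reversed IL8 (1.57), CXCL1 (0.84), CXCL2 (1.43), CXCL5 (1.32), PPBP (0.99), CXCL12 (0.19) and CXCL14 (-0.63). Leaving out 1 animal reversed CXCL1 (-0.76 to 0.23), CXCL3 (-0.60 to 1.55), CXCL10 (-0.49 to 0.24) and CXCL12 (-0.72 to 0.086). Without the replicate block the ratios were the same and 0 members were called. Members called were 1 (CXCL14) with either of these 2 signals, 2 with the dye term and 3 at an unadjusted p. Receptor probes called were 1 (CXCR1) with the same signals and 2 at an unadjusted p (CXCR6 and CXCR1). The methods' analysis of variance called 0 members, 0 receptors and 0 probes in all.

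Over all probes, 11 were called in the fit used, 50 without background correction, 5 with loess only, 171 with the processed signal, 224 with the authors' log2 values, 66 with an offset of 16, 5 without a filter, 44 with a stricter one, 4 with no replicate block, 792 with the dye term, 5 on slide 1, 20 on slide 2, 0 without any 1 of the 4 animals, 0 with the files as attached and 1729 at an unadjusted p. With the authors' log2 values 204 of 224 were higher in endometrium, against 11 of 11 in the fit used. The cause was not tested. Dim probes (CXCL9, CXCL10, CXCL11, CXCL12, PPBP) are limited by their signal over background.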
